A study of Mus musculus with 4 samples.

Results

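Homing receptors place lymphocytes in tissues, and 10 of them were followed in group 2 innate lymphoid cells (ILC2) of the pancreatic islets of fed and fasted mice. They were taken by gene symbol from a table of 15835 genes: the chemokine receptors Ccr9, Ccr8, Ccr4, Cxcr4, Cxcr6, Ccr2 and Ccr7, the sphingosine 1-phosphate receptors S1pr1 and S1pr4, and the oxysterol receptor Gpr183. All 10 had counts, and 8 passed the filter on low counts; S1pr1 and Ccr7 did not. The study asked how fasting in vivo bears on the function of pancreatic ILC2.

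Both groups were C57BL/6j mice with no other allele or agent named, and the groups differed in being fed or fasted. Each group held 4 CEL-seq2 libraries, named here by group and by the number 1, 3, 4 or 5 in their column names; CEL-seq2 counts the 3' ends of polyadenylated RNA and sequences several barcoded samples together. The columns named control were taken as fed. Age, sex, length of the fast and the way the cells were isolated are not given in the sources used here. Separate mice are not stated as the source of the libraries, so each p-value is set against the scatter among these 8 libraries alone, which may be technical.

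Total counts ran from 1797504 to 25252366, and 9537 to 14056 genes were detected per library. The cell label was checked against 22 ILC2 genes, all of which had counts. Their summed level was 3618 to 5398 CPM in the fed group and 4002 to 5294 CPM in the fasted group (CPM, counts scaled by library size, here after edgeR's TMM normalization). Il2rg and Thy1, the common cytokine receptor gamma chain and a surface glycoprotein of lymphocytes, led the list. Rora, an ILC2 transcription factor named after its counts were seen, had 5 counts in fed and 1 in fasted libraries. Transcripts of acinar cells, which secrete digestive enzymes, took 42.7% to 74.0% of counts in fed libraries. In fasted libraries 1 and 3 that share was 3.03% and 3.38%, and in fasted 4 and 5 it was 69.3% and 71.0%. Because these are bulk libraries, fewer cells of a type and less RNA per cell cannot be told apart in any level below.

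The 10 receptors are membrane-spanning proteins coupled mainly to inhibitory G proteins. A ligand gradient activates them, and the freed G protein subunits drive actin turnover and integrin adhesion towards the source of ligand. In innate lymphoid cells CXCR6, CCR9 and CCR4 are known for tissue homing, CXCR4 for retention in bone marrow and other CXCL12-rich niches, and sphingosine 1-phosphate receptors for exit into lymph and blood. After ligand binding, the receptors are phosphorylated and taken up with arrestins, so transcript level and surface level need not move together.

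Upstream flanking sequences are shown for Ccr9, Ccr8 and Cxcr4, since these were the receptors with the largest positive differences below. RefSeq promoter sequences (build GRCm38.p6) were matched for 8 of the 10 receptors; S1pr1 and Ccr7 had none. Only the stretch outside annotated exons is printed, 5′ to 3′ on the gene's strand. Capitals mark matches to 4 short motifs searched on both strands: GATAA (GATA factors such as GATA3), CACCC (Krüppel-like factors), AGAACA (glucocorticoid receptor) and TGTTTAC (FOXO factors). Ccr9 lies on the plus strand at chr9:123766961-123767168, Ccr8 on the plus strand at chr9:120091883-120092113 and Cxcr4 on the minus strand at chr1:128592300-128592549.
Ccr9: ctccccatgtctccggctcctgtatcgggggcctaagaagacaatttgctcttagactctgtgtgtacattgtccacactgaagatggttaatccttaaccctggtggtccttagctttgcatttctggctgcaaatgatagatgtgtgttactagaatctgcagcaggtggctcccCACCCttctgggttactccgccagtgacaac
Ccr8: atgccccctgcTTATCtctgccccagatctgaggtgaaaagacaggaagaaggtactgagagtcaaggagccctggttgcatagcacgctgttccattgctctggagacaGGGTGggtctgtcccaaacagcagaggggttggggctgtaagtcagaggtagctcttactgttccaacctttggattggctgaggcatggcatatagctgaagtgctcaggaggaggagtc
Cxcr4: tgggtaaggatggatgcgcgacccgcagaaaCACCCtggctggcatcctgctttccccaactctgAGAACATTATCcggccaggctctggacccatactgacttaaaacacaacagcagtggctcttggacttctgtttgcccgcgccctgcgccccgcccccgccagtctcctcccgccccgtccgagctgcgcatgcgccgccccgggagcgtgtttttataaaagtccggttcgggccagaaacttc

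The Ccr9 flank held a single CACCC, beginning 73 bases before the RefSeq start site. That start lies inside the Ccr9 gene as GENCODE annotates it, from 123678439 to 123784330. In Ccr8 the 2 capital stretches are the reverse complements of GATAA, at 239 bases, and of CACCC, at 140 bases before the start. The Cxcr4 flank held CACCC at 219 bases and AGAACA at 185 bases, directly followed by GATAA in reverse complement at 179 bases. Among 32817 promoters of 250 bases, CACCC was found in 52.0%, GATAA in 22.6%, AGAACA in 16.1% and TGTTTAC in 3.16%. Of the other receptors, searched over the same 250 bases, Ccr4 and S1pr4 held CACCC and Ccr2 held GATAA, each in reverse complement. The Ccr2 match, 97 bases before the start, lies within annotated exon sequence. No TGTTTAC was found in any of the 8. A match is a description of letters only.

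Of the 10 receptor genes, 5 lie on mouse chromosome 9 (mm10, GENCODE vM21). Ccr9 (123678439 to 123784330, plus strand), Cxcr6 (123806475 to 123811760, plus) and Ccr2 (124101950 to 124113557, plus) fall within a stretch of 435.1 kb, and Ccr8 (120092114 to 120094906, plus) and Ccr4 (114490316 to 114504916, minus) lie apart from them. Cxcr4 is on chromosome 1 (128588199 to 128592293, minus), S1pr1 on chromosome 3 (115710433 to 115715072, minus) and S1pr4 on chromosome 10 (81497747 to 81500132, minus). Ccr7 is on chromosome 11 (99144196 to 99155077, minus) and Gpr183 on chromosome 14 (121952551 to 121965195, minus). Cxcr6 lies inside Fyco1 and Gpr183 inside Ubac2, each on the opposite strand and without shared exons. Ccr9 shares exon sequence with 3 other annotated genes. Slc6a20a and AC165425.1 lie on the opposite strand, and the noncoding RNA gene Gm17200 lies on the same strand. The use of strand in counting is not stated, so reads of such overlaps cannot be told apart. Strand alone would not separate Ccr9 from Gm17200.

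No receptor passed the test between fasted and fed libraries. With edgeR's quasi-likelihood test and Benjamini-Hochberg adjustment, the smallest adjusted p among the 8 was 0.87, and 0 of all 7700 tested genes passed at 0.05 (0%). At an unadjusted p under 0.05, 2 of the 8 receptors stood out, Ccr9 and Ccr8, both higher in fasted, beside 4.39% of all genes. Positive log2 fold changes were found for 7 of the 8, beside 49.8% of all genes, and their median was 0.22, beside -0.0017 for all genes. These counts describe the receptors that passed the filter, which were chosen with results of these data known, and are no independent support for a direction.

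**Figure D1:**
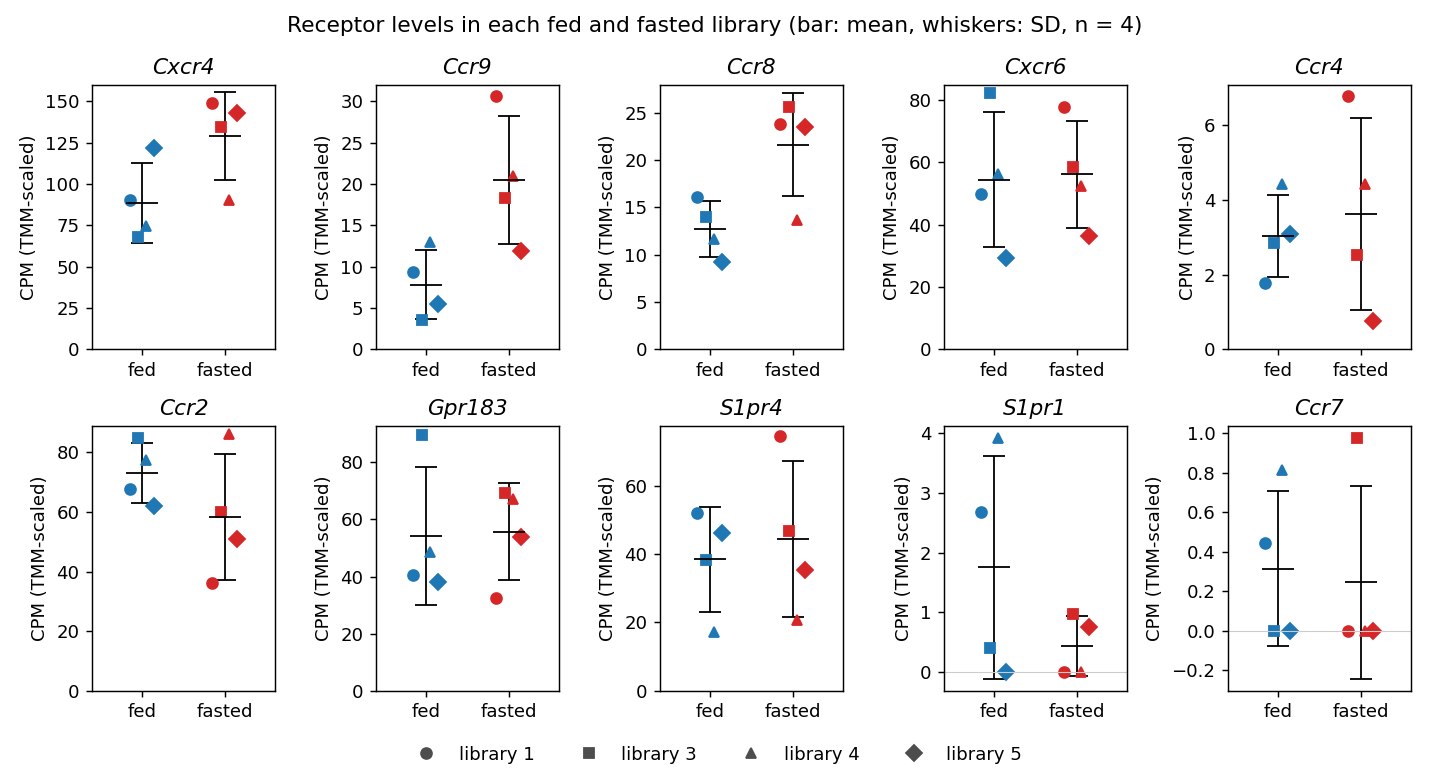
Levels of the 10 receptors in CPM (vertical axes, each with its own range), in fed and fasted libraries (horizontal axis); each point is a library, its shape gives the library number, and the bar and whiskers are the mean and SD of 4. Fasted Ccr9 points run from 11.9 to 30.6 CPM against 3.52 to 13.01 in fed, while Cxcr6 and Gpr183 cover about the same range in both groups.

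Ccr9 binds CCL25 and is the classical receptor for homing to the small intestine and thymus. Its level was 9.37, 3.52, 13.01 and 5.48 CPM in fed libraries 1, 3, 4 and 5, and 30.6, 18.3, 21.0 and 11.9 CPM in fasted libraries 1, 3, 4 and 5. Only fed 4 and fasted 5 overlapped, and within every library number the fasted level was the higher. The means were 7.84 ± 4.21 and 20.5 ± 7.77 CPM (SD, n = 4 each), resting on 16 to 176 counts a library. On the log2 scale the difference was 1.37 ± 0.45 (SE; 95% interval 0.38 to 2.36), a ratio of 2.59. In edgeR its unadjusted p was 0.0112 and its adjusted p 0.87, so the difference did not hold against the number of genes tested. By p it stood at place 99 of 7700. With the replicate block that pairs libraries of the same number, the log2 fold change was 1.46 ± 0.37 and edgeR's adjusted p 0.486.

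Ccr8 is a receptor for CCL1 and, in the mouse, CCL8, and is carried by type 2 and skin-homing lymphocytes. Its level was 16.1, 13.9, 11.7 and 9.25 CPM in fed libraries 1, 3, 4 and 5, and 23.9, 25.6, 13.6 and 23.5 CPM in fasted ones. Fasted 4 alone fell within the fed range, and the other 3 fasted libraries lay above all fed ones. This gave a log2 fold change of 0.77 ± 0.31 (SE; 95% interval 0.08 to 1.45), with means of 12.7 ± 2.93 and 21.6 ± 5.41 CPM (SD, n = 4 each). By edgeR the unadjusted p was 0.0308 and the adjusted p 1.00. Ccl1, the ligand gene, was itself measured here. Its mean was 103 ± 36.0 CPM in the fed group and 140 ± 30.6 CPM in the fasted group (SD, n = 4 each), with a log2 fold change of 0.44 ± 0.30.

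Ccr4 binds CCL17 and CCL22 and marks type 2 helper cells and skin-homing lymphocytes. It was sparse, with 4 to 60 counts a library: 1.78, 2.84, 4.43 and 3.08 CPM in fed and 6.78, 2.54, 4.42 and 0.758 CPM in fasted libraries 1, 3, 4 and 5. The highest and the lowest value were both fasted, from libraries 1 and 5, so the fasted range enclosed the fed one. Its log2 fold change was 0.21 ± 0.65 (SE; 95% interval -1.22 to 1.65), which leaves room for more than a doubling in either direction.

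Cxcr4, the receptor for CXCL12 and the classical signal for retention in bone marrow niches, was the third receptor with a higher fasted level in every library number. Fed libraries 1, 3, 4 and 5 held 90.6, 67.9, 74.5 and 122 CPM, and fasted ones 149, 134, 90.5 and 143 CPM. Fasted 4 lay within the fed range, level with fed 1, and the other 3 fasted libraries lay above all fed ones. Means were 88.7 ± 24.1 and 129 ± 26.4 CPM (SD, n = 4 each). Its log2 fold change of 0.54 ± 0.25 (SE) had a 95% interval from -0.02 to 1.102, with an unadjusted p of 0.0559 and an adjusted p of 1.00 in edgeR. A higher fasted level in all 4 numbers was found for these 3 of the 8 tested receptors, beside 9.38% of all genes.

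Cxcr6, whose membrane-bound ligand is CXCL16, serves the tissue residence of innate lymphoid cells. Its levels were 49.96, 82.1, 56.1 and 29.5 CPM in fed and 77.7, 58.5, 52.4 and 36.2 CPM in fasted libraries 1, 3, 4 and 5. The groups lay over each other, at 54.4 ± 21.7 and 56.2 ± 17.1 CPM (SD, n = 4 each). Library 5 was the lowest of both groups. Its log2 fold change of 0.04 ± 0.33 (SE) had a 95% interval from -0.69 to 0.77, so a difference of the size seen for Ccr9 lay outside it and one of the size seen for Cxcr4 did not.

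**Figure D2:**
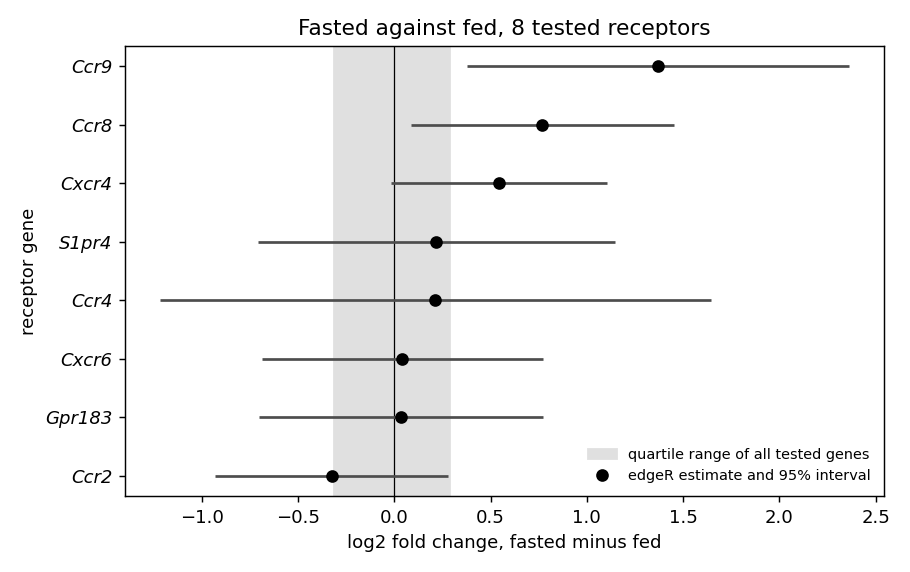
Log2 fold change, fasted minus fed, of the 8 tested receptors (horizontal axis, with points for the estimate and lines for the 95% interval from edgeR), in order of size; the grey band is the quartile range of all tested genes. The intervals of Ccr9 and Ccr8 lie above 0, that of Cxcr4 begins at -0.02 and the other 5 span 0 widely.

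Ccr2, the receptor for CCL2 that brings monocytes to inflamed tissue, was the sole receptor of the 8 with a negative estimate. Its fed levels were 67.8, 84.8, 77.4 and 62.0 CPM and its fasted levels 36.0, 60.1, 86.3 and 50.8 CPM in libraries 1, 3, 4 and 5. The lowest value was fasted 1 and the highest fasted 4, and in 3 of 4 numbers fed was higher. Its log2 fold change was -0.33 ± 0.28 (SE; 95% interval -0.93 to 0.28; edgeR adjusted p 1.00), with means of 73.0 ± 10.1 and 58.3 ± 21.1 CPM (SD, n = 4 each). Monocytes and macrophages also carry Ccr2. The summed level of their markers (11 of 14 listed genes had counts) was 2.66 to 12.9 CPM in the fed and 4.42 to 61.8 CPM in the fasted libraries. It was highest in fasted 1, where Ccr2 was lowest. The complement genes C1qb and C1qc led the list, at means of 2.38 ± 4.66 and 0.751 ± 0.990 CPM in fed and 11.1 ± 17.8 and 2.85 ± 4.04 CPM in fasted libraries (SD, n = 4 each). Of the defining genes, named after their counts were seen, Lyz2 had 2 and Cd68 5 counts over all libraries, and all 50 counts of Csf1r came from fasted 1. Their part in the Ccr2 level was not tested.

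Gpr183, also called EBI2, senses a dihydroxylated cholesterol, an oxysterol, and positions lymphocytes in gut lymphoid tissue. Fed libraries 1, 3, 4 and 5 held 40.6, 89.7, 48.6 and 38.0 CPM, and fasted ones 32.5, 69.3, 67.1 and 54.0 CPM. The highest value was fed 3 and the lowest fasted 1, with the other libraries between. On the log2 scale the difference was 0.03 ± 0.34 (SE; 95% interval -0.71 to 0.77), and the means were 54.2 ± 24.1 and 55.7 ± 16.9 CPM (SD, n = 4 each).

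S1pr4 is the lymphoid sphingosine 1-phosphate receptor, and S1pr1 is the one that drives lymphocyte exit. S1pr4 stood at 52.2, 38.2, 17.2 and 46.2 CPM in fed and 74.6, 46.8, 20.8 and 35.4 CPM in fasted libraries 1, 3, 4 and 5. Library 1 was the highest and library 4 the lowest in each group, and the spread within a group exceeded the difference between them. S1pr4 had a log2 fold change of 0.22 ± 0.42 (SE; 95% interval -0.71 to 1.15).

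S1pr1 had 6, 3, 53 and 0 counts in fed and 0, 5, 0 and 4 counts in fasted libraries 1, 3, 4 and 5. Most of its 62 fed counts came from fed 4, the deepest library, where they gave 3.92 CPM; the other libraries held 0 to 2.68 CPM. A count of 0 allows up to 3 counts, which is 1.03 CPM in fed 5, 0.702 CPM in fasted 1 and 0.553 CPM in fasted 4 (counting error only). Without the filter on low counts, edgeR gave a log2 fold change of -1.96 ± 1.43 (adjusted p 0.72), so no difference was detectable at this depth.

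Ccr7 guides lymphocytes and dendritic cells into lymph nodes. It had 1 and 11 counts in fed 1 and fed 4, 5 counts in fasted 3 and none in the other 5 libraries. The unfiltered log2 fold change was -0.37 ± 1.85, which sets no useful bound. Dendritic cell markers (5 of 10 listed genes had counts), of cells that also use Ccr7, summed to 0 to 4.14 CPM in the fed and 0.468 to 1.17 CPM in the fasted libraries.

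The same receptors were then read as counts per 1000 counts of the 22 ILC2 genes. Il2rg (1669 ± 360 CPM in fed, 1570 ± 348 in fasted) and Thy1 (1220 ± 323 and 1125 ± 218) lead that sum (SD, n = 4 each). Both are general lymphocyte genes, so the sum does not measure ILC2 content alone. On this scale Ccr8 was 2.98, 2.59, 3.23 and 1.99 in fed and 5.01, 4.83, 3.30 and 5.87 in fasted libraries 1, 3, 4 and 5, so that its groups no longer overlapped. The gap was narrow, between fed 4 and fasted 4, and 2.39% of all tested genes were higher in fasted without overlap on this scale. Ccr9 was 1.74, 0.654, 3.60 and 1.18 in fed and 6.44, 3.46, 5.08 and 2.98 in fasted libraries, with fed 4 above fasted 3 and 5. Cxcr4 was 16.8, 12.6, 20.6 and 26.3 in fed and 31.3, 25.4, 21.9 and 35.7 in fasted libraries, with fed 5 above fasted 3 and 4. S1pr4 was 9.67, 7.09, 4.76 and 9.97 in fed and 15.7, 8.85, 5.04 and 8.86 in fasted libraries, with overlap except for fasted 1. Ccr2 spanned 12.6 to 21.4 in fed and 7.57 to 20.9 in fasted libraries. Ccr8, Ccr9 and Cxcr4 thus kept their higher fasted means when the sum of these 22 genes was the yardstick.

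**Figure D3:**
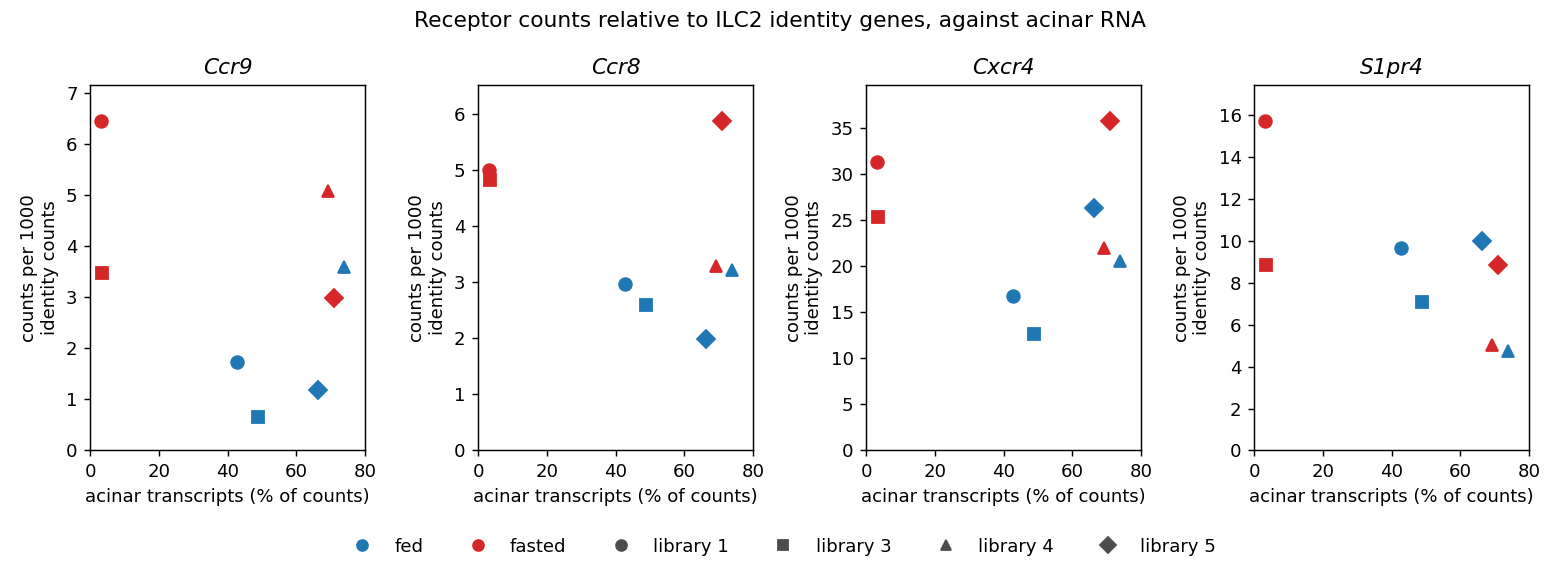
Counts per 1000 counts of the 22 ILC2 genes (vertical axes) for Ccr9, Ccr8, Cxcr4 and S1pr4 against the share of counts from acinar marker genes in percent (horizontal axes); each point is a library, blue for fed and red for fasted, and shapes give the library number. Fasted libraries 1 and 3 sit alone near 3% acinar share, and fasted 4 and 5 lie among the fed libraries at 69.3% and 71.0%.

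Since the acinar share differed so widely among fasted libraries, the estimates were also taken apart by it. Without fasted libraries 1 and 3, the log2 fold change of Ccr9 was 1.08 ± 0.56 (edgeR, unadjusted p 0.0787), that of Ccr8 0.54 ± 0.42 and that of Cxcr4 0.39 ± 0.34. With the acinar share as a covariate the estimates were 1.12 ± 0.51, 0.56 ± 0.35 and 0.43 ± 0.29. All 3 stayed positive, at smaller values and with larger errors. Without the 2 libraries S1pr4 was at -0.45, Cxcr6 at -0.30 and Ccr4 at -0.24, each with its sign turned. Gpr183 (0.15) and Ccr2 (-0.089) kept theirs.

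Over the 21 alternatives run, Ccr9, Ccr8 and Cxcr4 were positive in all 21. Ccr9 ranged from 1.08 to 2.20, with an unadjusted p under 0.05 in 20 of 21. Ccr8 ranged from 0.54 to 1.31, with such a p in 12 of 21, and Cxcr4 from 0.39 to 1.17, with such a p in 5 of 21. With the replicate block, which pairs libraries by number, edgeR's unadjusted p for Cxcr4 was 0.0246 and its adjusted p 0.711. The highest values came from scaling by library totals, which moved the median of all genes by 0.51. Relative to that median, Ccr9 was at 1.69, Ccr8 at 0.80, Cxcr4 at 0.66 and Ccr2 at -0.46. Receptors with an unadjusted p under 0.05 in edgeR numbered 0 without the 2 acinar-poor libraries. They numbered 1 without fed 4, fasted 1, fasted 3 or fasted 5. With library totals there was also 1, beside 229 of 7700 genes, and with the acinar covariate 1, beside 313 of 7700. Without fasted 4 such receptors numbered 4: Ccr9, Ccr8, Cxcr4 and Ccr2, the last lower in fasted at -0.58. The number over all genes, 338 of 7700 in the main fit, also rose without fasted 4, as given in the section on processing.

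**Figure D4:**
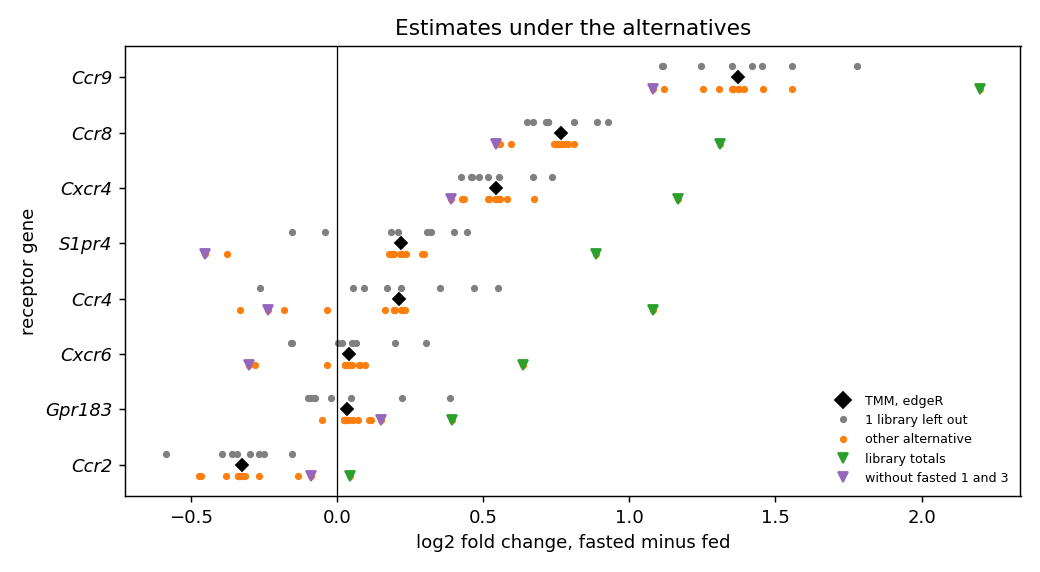
Log2 fold change, fasted minus fed, of the 8 tested receptors (vertical positions) and 21 alternatives; the diamond is the value given above, grey points leave out 1 library, orange points are other alternatives, and triangles mark library totals (green) and leaving out fasted 1 and 3 (purple). Points for Ccr9, Ccr8 and Cxcr4 all lie above 0, and those of Cxcr6, Ccr4, Gpr183, S1pr4 and Ccr2 fall on both sides. Ccr2 lies above 0 with library totals only.

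Receptors outside the 10 that also steer leukocytes were listed for comparison, and 12 of the 38 listed were tested. None passed after adjustment. At an unadjusted p under 0.05, 2 were higher and 0 lower, beside 2.77% and 1.62% of all genes: Ccrl2, an atypical receptor that presents chemerin (0.82 ± 0.30), and Gpr132, a lipid-responsive receptor of lymphocytes and macrophages (0.67 ± 0.30). Of the 12, 8 had positive and 4 negative estimates, with a median of 0.38. This list was also chosen with results of these data known, so its counts are no independent support for a direction. The leukotriene B4 receptor Ltb4r1 had means of 113 ± 31.9 CPM for fed and 147 ± 27.6 CPM for fasted libraries (SD, n = 4 each), with a log2 fold change of 0.38 ± 0.25. Selplg, the selectin ligand used for rolling on endothelium, had a log2 fold change of 0.39 ± 0.28. The sphingosine 1-phosphate receptor S1pr2, named after its values were seen, was at -0.85 ± 0.70. Its value was -2.37 ± 0.85 without fasted 1 and 3 and -2.18 ± 0.76 with the acinar covariate (edgeR, unadjusted p 0.018 and 0.0144, adjusted p 1.00 for both).

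Ligands and the enzymes that make or break them were measured in the same RNA, with 7 of 24 tested, 4 positive and 3 negative. None had an unadjusted p under 0.05, and the median was 0.27. Sphk2, a kinase that makes sphingosine 1-phosphate, had a log2 fold change of 0.36 ± 0.27, and Sgpl1, the lyase that degrades it, 0.27 ± 0.30. Unlike Ccl1, which had 113 to 1473 counts a library, the ligand genes of Cxcr4, Ccr9 and Cxcr6 were sparse; they are named after their counts were seen. Cxcl12 had 82 counts, 67 of them in fed 4, Ccl25 had 12 counts, all in fed libraries, and Cxcl16 had 17.

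Of 56 genes for G protein signalling, adhesion and actin, 48 were tested and none passed at an adjusted or unadjusted p under 0.05. Estimates were positive for 34 and negative for 14, with a median of 0.15. The smallest p-values belonged to Ezr, a linker of membrane and actin (0.53 ± 0.26), Rassf5, an activator of integrin adhesion (0.50 ± 0.25), and Rap1a, a small GTPase of the same route (-0.54 ± 0.35). Those with the highest CPM were Cfl1, an actin-severing protein (0.01 ± 0.23), Rac2, a GTPase for migration (0.14 ± 0.27), and Gnai2, the inhibitory G protein subunit of lymphocytes (-0.09 ± 0.30).

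Of the genes listed as regulators of homing receptors or lymphocyte residence, 20 were tested. At an unadjusted p under 0.05, 6 were higher in fasted and 0 lower, beside 2.77% and 1.62% of all genes. None passed after adjustment; the smallest adjusted p from edgeR was 0.499. The estimates were positive for 13 and negative for 7, with a median of 0.40. These regulators were chosen with results of these data known, so the counts are no independent support for a direction. The 3 with the smallest p were Tsc22d3, the glucocorticoid-induced leucine zipper (1.38 ± 0.30), Zfp36l2, an RNA-binding protein that destabilizes transcripts (1.06 ± 0.26), and Lef1, a partner of beta-catenin (1.16 ± 0.37). DESeq2 alone, for which 32 of 109 calls on simulated counts were false, gave Tsc22d3 an adjusted p below 0.05, at 0.0406. Those with the highest CPM were Zfp36l1 (0.41 ± 0.22), the retinoic acid receptor Rarg (-0.15 ± 0.32) and Id2, which all innate lymphoid cells need (-0.34 ± 0.30).

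Klf2 and Cd69 are set side by side here, chosen after their values were seen, because both bear on S1PR1: KLF2 activates its gene and CD69 removes the protein from the surface. Cd69 stood at 66.9, 105, 112.1 and 67.5 CPM in fed and 133, 160, 152 and 112.8 CPM in fasted libraries 1, 3, 4 and 5. Its groups did not overlap, by a margin of under 1 CPM between fed 4 and fasted 5, beside 2.21% of all genes that were higher in fasted without overlap. For Cd69 the log2 fold change was 0.66 ± 0.24, with an unadjusted p of 0.02 and an adjusted p of 1.00 in edgeR. Klf2 stood at 207, 140, 120 and 168 CPM in fed and 79.1, 132, 111 and 140 CPM in fasted libraries. Klf2 was lower in fasted within every number, while the groups overlapped, and no share of all genes is given for this pattern. Its log2 fold change was -0.46 ± 0.25 (SE; 95% interval -1.01 to 0.097), with an unadjusted p of 0.0969 in edgeR. Foxo1, a listed regulator named after its values were seen, was at 0.46 ± 0.31. S1pr1 did not pass the filter on low counts, so a link between its level and these genes was not tested. The remaining regulators with an unadjusted p under 0.05 were Bach2, a repressor of effector genes (1.31 ± 0.50), and Rxra, the partner of retinoic acid receptors (0.71 ± 0.30).

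**Figure D5:**
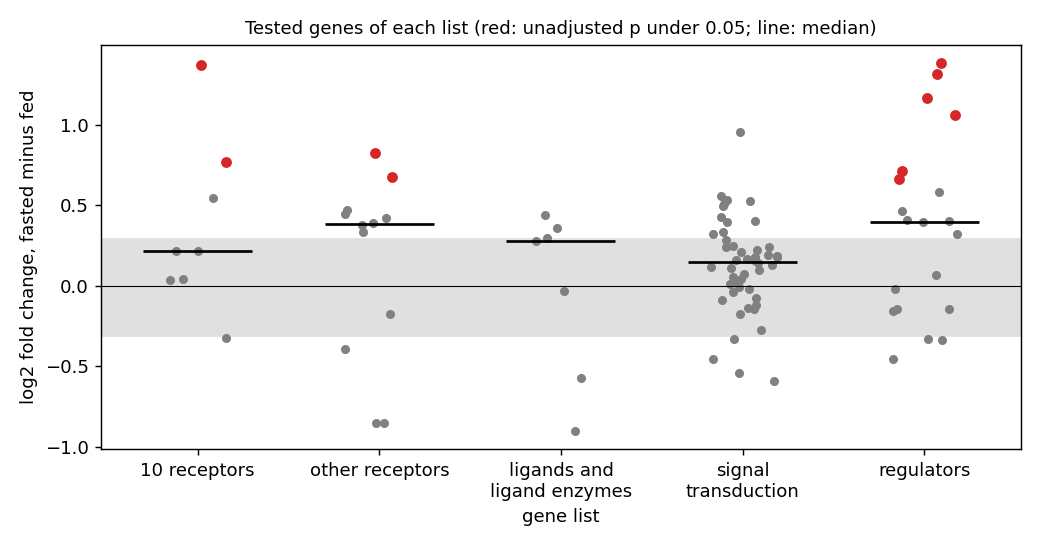
Log2 fold change, fasted minus fed, of the tested genes of each list (horizontal positions: the receptors, other receptors, ligands, signal transduction and regulators); each point is a gene, red where its unadjusted p is under 0.05, the line is the median, and the grey band is the quartile range of all tested genes. Medians lie at 0.22, 0.38, 0.27, 0.15 and 0.40, beside -0.0017 for all 7700 genes.

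Other lymphocytes carry most of these receptors too. T cell markers (11 of 12 listed genes had counts) summed to 292 to 592 CPM in the fed and 388 to 575 CPM in the fasted libraries. Most of this sum was Lat, at means of 346 ± 115 CPM (fed) and 391 ± 72.2 CPM (fasted). Lck came next, at 54.3 ± 13.2 and 44.8 ± 22.4 CPM (SD, n = 4 each). Other T cell genes are named after their values were seen. Cd3d had 9 counts in fed and 11 in fasted libraries, Cd8a 11 and 0, and Cd8b1 4 and 2. Cd6 had 17 and 33 counts, and Cd28 had 0 and 23, of which 22 were in fasted 3. Cd3e had means of 1.65 ± 1.44 CPM (fed) and 5.93 ± 3.02 CPM (fasted; SD, n = 4 each), with a log2 fold change of 1.86 ± 0.99. Cd3g had means of 33.6 ± 4.92 CPM (fed) and 47.7 ± 5.03 CPM (fasted; SD, n = 4 each), and its groups did not overlap, beside the 2.21% above. Cd79b led the B cell markers (7 of 8 listed genes had counts), which summed to 0.677 to 7.17 CPM in the fed and 3.12 to 11.6 CPM in the fasted libraries. Markers of mast cells, basophils and eosinophils (3 of 11 listed genes had counts, led by Cpa3 and Fcer1a) summed to 0 to 5.01 CPM for fed and 0.758 to 6.08 CPM for fasted libraries. Islet endocrine markers (13 of 18 listed genes had counts, led by Ttr and Pcsk1) summed to 63.7 to 173 CPM for fed and 3.98 to 85.0 CPM for fasted libraries, with fasted 1 the lowest by share of counts. Ductal, stromal and endothelial markers, led by Krt8 and Krt18, summed to 94.6 to 437 CPM in the fed and 10.3 to 259 CPM in the fasted libraries. Their part in the receptor levels was not tested.

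For Cxcr4 and Ccr2, the receptors with the highest mean CPM, the genes with the most similar pattern over the 8 libraries were sought after group means were taken off. For Cxcr4 these were Hmg20b, a chromatin protein, and the ribosomal protein gene Rpl39, with Pearson r of 0.991 and 0.988 across libraries on log2 CPM. For Ccr2 they were Mfsd1 and Stard3nl, both of lysosomal or endosomal membranes, with r of 0.979 and 0.973. With only 8 libraries, which differ in depth and acinar share, 116 of 7699 genes reached an r over 0.9 with Cxcr4 and 45 with Ccr2. These values are a description of the 8 libraries.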

How the data were processed

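RNA of islet ILC2 was measured in 4 fed and 4 fasted libraries. The authors deposited whole-number counts per gene, not normalized; their nature as reads or molecular identifiers and the use of strand are not given in the sources used here. Libraries were made with CEL-seq2 from Trizol-extracted RNA, per the labels' protocols, and STAR, edgeR and mm10 were used, per the submitters' processing notes. Treatment was read from column names, and 2 further count columns were not used. The table held 15835 genes, with 11 spike-in rows of 20 counts left out. Libraries within a group all differed by more than counting noise (chi-square per gene at least 15.0).

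In R 4.3.3, edgeR 4.0.16 was run on the whole table: filterByExpr kept 7700 genes, sizes were scaled by TMM (factors 0.538 to 2.11), and fasted was set against fed with the robust quasi-likelihood test, two-sided, adjusted by Benjamini-Hochberg over all tested genes. SE is the log2 fold change divided by the root of the F statistic. Alternatives used DESeq2 1.42.0 and limma 3.58.1 (voom with quality weights), other scalings and filters, thinning, an acinar covariate, and each library left out. The test was also run on simulated counts in which 200 of 7700 genes were changed. There edgeR called 2% of the 2-fold and 39% of the 4-fold changes, and 3 of its 44 calls were false. DESeq2 called 12% and 65%, with 32 of its 109 calls false, and limma-voom 2% and 36%, with 1 of 39 false. A 2-fold change would thus seldom be called, and a receptor that does not pass may still differ. Libraries of the same column number correlated in their deviations from group means at 0.225, 0.139, 0.504 and 0.131. Each is past 0.1, and these libraries were taken to be pairs. Libraries of different numbers ran from -0.405 (fed 4 with fasted 1) to 0.215 (fed 4 with fasted 5). The ranges overlap, so the pairing is an assumption, and what a number stands for is not in the labels. The values in the text are from the fit without this pairing, except where the replicate block is named.

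Coordinates come from GENCODE vM21 (mm10) by symbol, and promoters from RefSeq. The receptors and lists were chosen with earlier results of these data known; 9 list genes were matched by synonym. Named genes are all 10 receptors, the 3 tested genes with the smallest p and the 3 with the highest mean CPM of each list, the 2 such markers of each other cell type, and the 2 genes most like each of the 2 receptors with the highest mean CPM; genes outside this rule are marked in the text. Some genes and 1 marker list that this rule takes are not reported here.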

Additional observations from a re-analysis of the deposited data

Results flagged for a closer look

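In 3 cases a single library stood apart from the other 3 of its group by Dixon's test at 95%, which by chance picks out about 1 in 20 groups; 44 groups were tested. Ccr7 was at 0.976 CPM in fasted library 3 and at 0 in the other fasted libraries, on 5 counts. The summed myeloid markers were at 61.8 CPM in fasted library 1, where the other fasted libraries began at 4.42 CPM, and at 12.9 CPM in fed library 1, where the others began at 2.66 CPM. No level of the 8 tested receptors stood apart in this way within its group.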

How the results depend on the processing

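Calls were the same under every alternative for the receptors: 0 passed an adjusted p of 0.05 under the 21 alternatives. The count over all genes was 0 in edgeR's main analysis, 1 with library totals, 1 with no filter and 8 with DESeq2. On simulated counts 32 of DESeq2's 109 calls were false. Genes with an unadjusted p under 0.05 numbered 338 of 7700, and 919 of 15661 with no filter. They numbered 714 with limma-voom and 535 with the replicate block, each of 7700. Without fasted 4, where the filter kept another set of genes, they numbered 561. The block changed no call of a receptor; under it Ccr8 was 0.74 ± 0.29 and Cxcr4 0.55 ± 0.20. Several estimates changed sign, and not only those near 0. In the main fit S1pr2 was -0.85 ± 0.70, Selplg 0.39 ± 0.28, Id2 -0.34 ± 0.30 and Ccr2 -0.33 ± 0.28. The cause was not tested. With library totals Ccr2 was 0.044, Gnai2 0.38, Id2 0.22, Rarg 0.52 and S1pr2 0.10, before the shift of 0.51 in the median of all genes. Ccr2, Gnai2, Id2 and S1pr2 thus lay below that median, and Rarg was about level with it. In no other alternative were Ccr2, Id2 or S1pr2 positive. Ccr4 was -0.33 with limma-voom, -0.032 with the block, -0.18 when the acinar share was a covariate, and -0.24 leaving out the 2 acinar-poor libraries. In the last of these settings Cxcr6 was -0.30, Rac2 -0.23, S1pr4 -0.45 and Selplg -0.14, and with the covariate -0.28, -0.18, -0.38 and -0.071. With limma-voom Cxcr6 was -0.033, Gpr183 -0.052 and Cfl1 -0.0049. Cfl1 was -0.0093 with DESeq2 size factors, -0.0034 without acinar and islet genes, -0.0089 with DESeq2 and -0.056 after thinning. With 1 library left out at a time, Ccr4 ran from -0.26 to 0.55, Cxcr6 from -0.16 to 0.31, Gpr183 from -0.10 to 0.39, S1pr4 from -0.15 to 0.45, Cfl1 from -0.12 to 0.16, Gnai2 from -0.25 to 0.25, Rac2 from -0.031 to 0.28 and Rarg from -0.37 to 0.041. Ccr4 was below the filter after thinning to 1797504 counts. Depth limits S1pr1 and Ccr7 most, which had 0 to 6 counts in every library but fed 4.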

Other observations

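The summed counts of the 10 receptors, per 1000 counts of the ILC2 genes, stood at 61.4, 71.3, 85.0 and 68.0 (fed 1, 3, 4 and 5). The fasted values, in the same order, were 90.5, 78.8, 86.2 and 89.0. Fed 4 lay above fasted 3, so the sums overlapped, and the sum is weighted towards the receptors with the most counts. Fasted 1 had the highest level of the 8 libraries for 4 of the 8 tested receptors and the lowest for 2 of them, Ccr2 and Gpr183. Spread among libraries beyond counting noise, as the biological coefficient of variation, was 0.311 for Cxcr4, 0.325 for Ccr2 and 0.335 for Ccr8. It was 0.607 for the sparse Ccr4, beside a median of 0.445 over all tested genes.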
